A study of Homo sapiens with 12 samples.

Results

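FAS, the caspases CASP8, CASP9 and CASP2, the caspase-8 inhibitor CFLAR, the caspase-9 activator APAF1 and the BCL2 family genes BCL2L11, BCL2L13, BCL2L1 and MCL1 are 10 human genes of the cell death machinery whose transcripts are alternatively spliced. They were described here in the tumour cell line GS689.Li, written GS689, and in the line PC3E. Both are wild-type prostate cancer lines derived from PC3, GS689 of mesenchymal and PC3E of epithelial character, grown in the same medium with the selection antibiotic G418. The genes were chosen by name, with earlier results of these data known. Exons were assigned to them by structure, from strand, exon length and the lengths of both flanking introns. Of the 10 genes, 6 had events in the RASL-seq table, a targeted assay that ligates probe pairs across splice junctions and counts the products. Those 6 genes held 10 of its 2023 exon events, against 1431 named genes in the whole table. In RNA-seq, 9 of the genes held 96 of the 114816 events. BCL2L1, whose BCL-X protein has a death-blocking long and a death-promoting short form, had 0 events in either table and is not described further.

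Each assay had 3 libraries per line. The RNA-seq header names 2 numbered sets of 3 libraries and no cell line, so every comparison of the lines comes from RASL-seq, and RNA-seq levels are given over its 6 libraries. The RASL-seq libraries held between 615758 and 954120 counts. PC3E replicate 2 stood apart from the other PC3E libraries (chi-square of their inclusion shares divided by its degrees of freedom 5.29 and 3.83, against 1.99 between replicates 1 and 3). The GS689 pairs lay between 1.70 and 2.05. The labels do not say that replicates were separate cultures, so p-values measure only how far these libraries scatter, a scatter that may be technical. Levels are CPM, counts set against a library total scaled by trimmed means of log ratios. Each line is a bulk culture, so fewer cells with a transcript and less transcript per cell cannot be told apart. Of 15 listed epithelial markers 4 were testable, and all 4 were called lower in GS689 (limma-voom adjusted p under 0.05). Of 10 listed mesenchymal markers 1 was testable, VIM, and was called higher. Over all 1317 features tested, 13.4% were called lower and 16.4% higher. Summed epithelial marker levels were 334 to 433 CPM in GS689 and 829 to 1217 CPM in PC3E, and the part of this difference in the results below was not tested. Of the 6 prostate luminal markers 0 had events, so the tissue of origin was not checked.

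Cells can be killed from outside or from within. In the outer route, FAS ligand binds the receptor FAS at the cell surface, which gathers an adaptor and caspase-8 into a complex where the caspase becomes active, and CFLAR, also called c-FLIP, competes for that place. In the inner route, BCL2 family proteins on mitochondria decide whether cytochrome c is released. Released cytochrome c makes APAF1 assemble the apoptosome, a wheel that activates caspase-9. Many of these genes make a pair of forms with opposing effects from 1 exon choice, and their exons have long served as models in splicing research.

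The exons below are those whose choice is known to change the protein or whose levels are described in the next paragraphs. Sequences are from the GENCODE release 29 transcripts that hold the matched exon, 5′ to 3′ on the sense strand, and positions are those of the deposited tables on hg19. In the FAS exon the capitals mark TCTTCTTCTT, a stretch of 3 overlapping TCTT matches, letters that the splicing repressor PTBP1 favours. The other exons carry no capitals.
FAS exon 6, chr10:90770510-90770572, 63 nt: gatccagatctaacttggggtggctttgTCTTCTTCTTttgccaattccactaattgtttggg
CASP8 45 nt exon, chr2:202137621-202137665: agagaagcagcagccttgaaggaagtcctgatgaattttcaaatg
CASP2 61 nt exon, chr7:142997473-142997533: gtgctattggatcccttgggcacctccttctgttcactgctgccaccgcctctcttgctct
BCL2L11 90 nt exon, chr2:111881627-111881716: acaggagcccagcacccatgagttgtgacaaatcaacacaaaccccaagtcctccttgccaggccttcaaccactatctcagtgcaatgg
APAF1 129 nt exon, chr12:99097149-99097277: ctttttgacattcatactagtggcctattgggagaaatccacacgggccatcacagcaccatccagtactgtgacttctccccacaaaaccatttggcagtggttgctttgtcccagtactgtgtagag
Among 1070 annotated internal exons of 63 nt, TCTT occurred in 231 (21.6%) and its reverse complement AAGA in 459 (42.9%). As many TCTT matches as in the FAS exon were found in 6 of them (0.561%), and the FAS exon held 0 AAGA. The FAS, CASP8, BCL2L11 and APAF1 exons are multiples of 3 nt, of 21, 15, 30 and 43 codons, and hold 0 stop codons in the frame that was read. Annotated FAS transcripts enter the FAS exon in more than 1 frame. Its stop codons were read only in the frame with 1 base of a codon already open. The CASP2 exon leaves a remainder of 1 nt, so its inclusion shifts the reading frame. Read on from it, the first stop codon begins at base 2 of the next exon, whereas without the 61 nt exon the first stop codon lies at base 390 counted from the start of that next exon.

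FAS, the death receptor itself, was expressed at a lower level in GS689 than in PC3E. Its total over 3 exon events was 40.0, 44.8 and 37.3 CPM in GS689 replicates 1 to 3 and 315, 235 and 207 CPM in PC3E replicates 1 to 3. The highest GS689 library thus lay far below the lowest PC3E library. The raw counts behind these levels were 39, 37 and 23 in GS689 and 267, 181 and 185 in PC3E. The means were 40.7 ± 3.79 CPM in GS689 and 253 ± 56.1 CPM in PC3E (SD, n = 3 each). The log2 change was -2.59 ± 0.26 (SE), with a 95% interval of -3.15 to -2.02 and an adjusted p of 3.07e-05 by limma-voom, which is a 6.02-fold lower level in GS689. Of all 1317 genes and unnamed events tested, 23 (1.75%) had a change as low as that of FAS or lower.

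The 3 FAS exon events gave the same direction one by one. Exon 6 encodes the membrane-spanning stretch, and its skipping gives a soluble receptor that can block FAS ligand. Counts of both its junctions together were 33.9, 35.1 and 21.1 CPM in GS689 and 233, 179 and 158 CPM in PC3E. Its log2 change was -2.63 (adjusted p = 4.13e-05 in a limma-voom fit of all events). Exon 4, of 109 nt at chr10:90768646-90768754, had 2.05, 3.63 and 8.10 CPM in GS689 and 41.3, 31.2 and 24.7 CPM in PC3E. Exon 8, of 25 nt at chr10:90773100-90773124, had 4.11, 6.05 and 8.10 CPM in GS689 and 41.3, 24.7 and 24.7 CPM in PC3E. Their log2 changes were -2.89 (adjusted p = 0.00157) and -2.28 (adjusted p = 0.00303) in the same fit. In that fit 28.6% of all 1705 events tested were called in either direction and 13.2% were called lower in GS689. The events share a gene and libraries, and are not independent repeats.

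**Figure D1:**
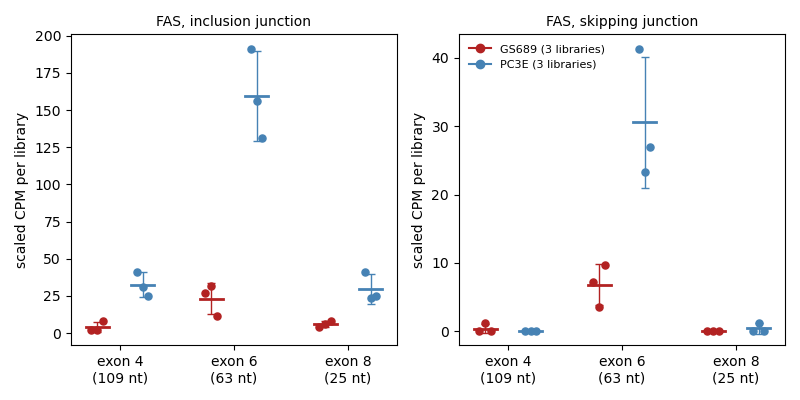
Scaled CPM of the inclusion junction (left panel) and the skipping junction (right panel) of 3 FAS exons in each RASL-seq library, GS689 in red and PC3E in blue, with mean bars and SD whiskers (n = 3 libraries per line). For exon 6 the inclusion junction had 11.3 to 31.5 CPM in GS689 and 131 to 191 CPM in PC3E, and the skipping junction 3.63 to 9.72 CPM in GS689 and 23.4 to 41.3 CPM in PC3E.

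Both forms of exon 6 were therefore less abundant in GS689, as the plot of FAS junctions shows. The inclusion junction had 26.7, 31.5 and 11.3 CPM in GS689, against 191, 156 and 131 CPM in PC3E. The skipping junction, which the soluble form uses, had 7.19, 3.63 and 9.72 CPM in GS689, against 41.3, 23.4 and 26.9 CPM in PC3E. The ranges of the lines did not overlap for either junction, and the share of all junctions with such ranges was not counted. With skipping counts alone, the FAS total still had a log2 change of -2.11 (limma-voom adjusted p = 0.0049).

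The share of exon 6 inclusion, by contrast, was not called different. It was 78.8%, 89.7% and 53.8% in GS689, from 33, 29 and 13 counts, and 82.2%, 87.0% and 83.0% in PC3E, from 197, 138 and 141 counts. GS689 replicate 3, with 7 inclusion and 6 skipping counts, lay below every other library, and its exact 95% interval ran from 25.1% to 80.8%. The other GS689 libraries fell on either side of the PC3E range. The means were 74.1% ± 18.4 in GS689 and 84.1% ± 2.54 in PC3E (SD, n = 3 each), a difference of -9.96 percentage points. The adjusted p of the quasi-binomial model was 0.762. The model's 95% interval of the odds ratio, put as points from the pooled PC3E level held fixed, ran from -22.9 to 5.89 points. It stands around the pooled shares, 78.7% in GS689 and 83.8% in PC3E, not around the difference of means. Without GS689 replicate 3 the difference was 0.165 points. A shift of up to 22.9 points towards skipping thus lies within the interval at this depth.

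CASP8, the initiator caspase that FAS activates, had a total of 96.5, 95.6 and 118 CPM in GS689 and 267, 143 and 153 CPM in PC3E. The 3 GS689 libraries lay below the 3 PC3E libraries, of which replicate 1 stood highest. The means were 103 ± 12.8 CPM in GS689 and 187 ± 69.0 CPM in PC3E (SD, n = 3 each). The log2 change was -0.82 ± 0.26 (SE; limma-voom adjusted p = 0.0338). This call did not survive the loss of any 1 GS689 library or of PC3E replicate 1. Without GS689 replicates 1, 2 and 3 in turn the log2 change was -0.77, -0.77 and -0.89, with adjusted p of 0.121, 0.108 and 0.0741. Without PC3E replicate 1 it was -0.55, with an adjusted p of 0.0824.

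The CASP8 total rests on a pair of events. The event of the 45 nt exon had 81.1, 67.8 and 97.2 CPM in GS689 and 240, 116 and 130 CPM in PC3E, a log2 change of -0.95 (adjusted p = 0.0297 in the limma-voom fit of events). The 331 nt exon at chr2:202131184-202131514, upstream in the gene, had 15.4, 27.8 and 21.1 CPM in GS689 and 27.2, 27.3 and 22.4 CPM in PC3E. There the ranges overlapped, and the log2 change was -0.32 (adjusted p = 0.502). Whether the changes of these events differ from each other was not tested. The 331 nt exon was included in 50 of 51 counts in GS689 and in 63 of 64 in PC3E.

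The 45 nt CASP8 exon, which adds 15 codons in frame, was the minor form in RASL-seq. Its inclusion was 16.5%, 17.9% and 16.7% in GS689, from 79, 56 and 60 counts, and 10.8%, 24.7% and 12.9% in PC3E, from 203, 89 and 116 counts. PC3E replicate 2 was the highest of the 6 libraries and the other PC3E libraries the lowest, so that the GS689 values fell inside the PC3E range. The means were 17.0% ± 0.756 in GS689 and 16.2% ± 7.48 in PC3E (SD, n = 3 each). The difference of means was 0.831 points (adjusted p = 0.840 in the quasi-binomial model). The model's 95% interval, taken from the pooled PC3E level of 14.5%, ran from -5.20 to 14.4 points. Without PC3E replicate 2, the library that stood apart, the difference of means was 5.11 points.

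CFLAR, which competes with caspase-8, had 0 RASL-seq events and 7 RNA-seq events. Summed counts of these events were between 1488 and 2533 per RNA-seq library, with a median of 1785. Exon 2, at chr2:201994452-201994869, had a median inclusion of 95.2% (range 93.0% to 96.7%) when read against its farther upstream partner, from 6 to 15 skipping counts. The other 6 events had median inclusion levels of 98.4% or more or, for a 118 nt exon, of 0%. For that exon 0 or 1 inclusion count stood against 57 to 108 skipping counts per library.

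**Figure D2:**
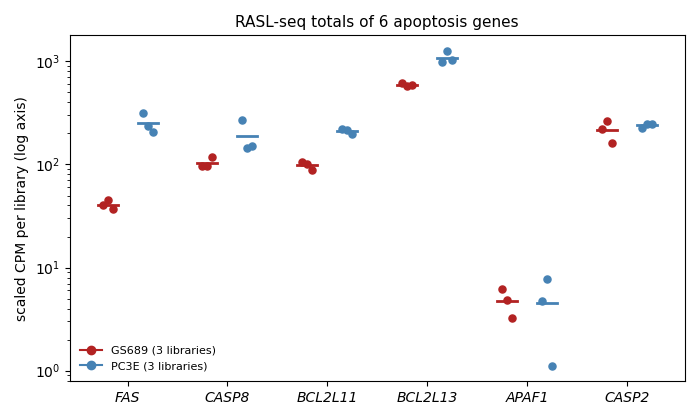
Scaled CPM per RASL-seq library, on a log axis, of the 6 genes with RASL-seq events, GS689 in red and PC3E in blue, with a bar at each mean of 3 libraries. FAS, CASP8, BCL2L11 and BCL2L13 had every GS689 library below every PC3E library, while APAF1 and CASP2 overlapped.

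Of the BCL2 family, BCL2L11 and BCL2L13 were called lower in GS689, as the plot of totals by library shows. BCL2L11 encodes BIM, a death-promoting member that neutralises the protective ones. It had 107, 100.4 and 89.1 CPM in GS689 and 220, 218 and 197 CPM in PC3E. The ranges were far apart, and the libraries of each line close together. The means were 98.8 ± 8.95 CPM in GS689 and 212 ± 12.5 CPM in PC3E (SD, n = 3 each). The log2 change was -1.08 ± 0.17 (SE; limma-voom adjusted p = 0.000829), a 2.12-fold lower level.

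These BCL2L11 counts come from 1 event with an upstream intron of 180 nt. BIM messages that keep that intron as coding sequence encode the extra long form, those that remove it the long form, and those that skip the 90 nt exon the short form, which is the most toxic. Since inclusion is counted at the upstream junction, the extra long form is not counted here. Skipping counts were 0 of 242 in GS689, which allows a share of up to 1.24%, and 3 of 530 in PC3E. Exon inclusion was 100% in each GS689 library and 100%, 99.4% and 98.9% in PC3E, with too few skipping counts for the model.

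BCL2L13, also called BCL-Rambo, is a BCL2-like protein of the mitochondrial outer membrane. It had 613, 581 and 587 CPM in GS689 and 978, 1258 and 1027 CPM in PC3E. The GS689 libraries lay within a narrow band below all PC3E libraries. The means were 593 ± 17.2 CPM in GS689 and 1088 ± 150 CPM in PC3E (SD, n = 3 each), with a log2 change of -0.86 ± 0.14 (SE; limma-voom adjusted p = 0.000859). Its 157 nt exon at chr22:18171752-18171908 and its 70 nt exon at chr22:18178907-18178976 gave log2 changes of -0.85 (adjusted p = 0.00107) and -0.995 (adjusted p = 0.000867) in the fit of events.

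Splicing of BCL2L13 was close to complete in both lines. The 157 nt exon was included at 95.4%, 96.1% and 94.7% in GS689 and at 94.3%, 95.1% and 96.2% in PC3E. With 284 to 771 counts per library this was the deepest of the exons tested, and the ranges overlapped. The difference of means was 0.207 points (adjusted p = 0.945 by the quasi-binomial model). The model's 95% interval, taken from the pooled PC3E level of 95.2%, ran from -2.24 to 1.87 points. The 70 nt exon was skipped in 2 of 118, 1 of 96 and 2 of 78 counts in GS689 and in 0 of 193, 0 of 198 and 0 of 206 counts in PC3E. Its inclusion was thus 98.3%, 99.0% and 97.4% in GS689, below 100% in each PC3E library, and a pooled 0 of 597 in PC3E allows a skipped share of up to 0.503%. The event had too few skipping counts for the model, and the two-sided exact permutation test gave p = 0.1, the smallest that 3 against 3 libraries allow.

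MCL1, a short-lived protective member, had 1 RNA-seq event and 0 in RASL-seq, whose table lists plus-strand events alone. Skipping of its 248 nt exon 2, at chr1:150550720-150550967 on the minus strand, gives a short form that promotes death. RNA-seq inclusion of that exon ranged from 94.98% to 97.8% with a median of 95.7%, from 2424 to 3687 counts per library. Skipping was represented by 37 to 80 counts in every library.

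APAF1, the scaffold of the apoptosome, was near the floor of RASL-seq. It had 6, 4 and 2 counts in GS689 and 4, 6 and 1 in PC3E, or 3.24 to 6.16 CPM in GS689 and 1.12 to 7.79 CPM in PC3E, and was too low to test. The 129 nt exon adds 43 codons of a WD40 repeat in the region that senses cytochrome c. It was included in 0 of 12 counts in GS689 and in 0 of 11 in PC3E, and 0 of 23 allows a share of up to 13.0%. RNA-seq placed the same exon at 77.4% inclusion over its 6 libraries, with values between 69.9% and 87.7%. The RASL-seq value therefore lay 77.4 points below the RNA-seq value, while its upper limit was 13.0%.

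CASP9, which the apoptosome activates, lies on the minus strand and had 7 RNA-seq events. Its 148 nt exon 6 at chr1:15831106-15831253 had a median inclusion of 60.6%, with a range of 48.3% to 71.4%. The skipping junction of that event joins exon 7 to exon 2 and leaves out exons 3 to 6, as in the short form CASP9b, which lacks most of the catalytic large subunit and blocks the full enzyme. It was supported by 13 to 55 counts per library. The inclusion counts do not separate the junctions of exon 6 to exons 7 and 2, so the inclusion level also depends on how far both were used. The 5 remaining exons of 35, 90, 110, 177 and 180 nt were at median levels of 97.8% or more, with the exception of the 177 nt exon 4 when set against the same long junction, at 3.37%. That low value rests on 1 to 4 inclusion counts. The other event of the 177 nt exon, with a range of 33.3% to 100%, rests on a median of 2 counts per library.

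CASP2, an initiator caspase of the stress response, was not called different in total. It had 220, 264 and 160 CPM in GS689 and 227, 247 and 248 CPM in PC3E. GS689 replicates 2 and 3 were the highest and the lowest of the 6 libraries, and the ranges overlapped. The means were 215 ± 51.9 CPM in GS689 and 240.5 ± 11.8 CPM in PC3E (SD, n = 3 each). The log2 change was -0.17, with a 95% interval of -0.58 to 0.24 and an adjusted p of 0.523 by limma-voom. The sign rested on 1 library, since the change was 0.01 without GS689 replicate 3.

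The 61 nt CASP2 exon, whose frame shift gives the short protective form CASP2S, was rarely used in either line. It was included in 1 of 214, 5 of 218 and 3 of 99 counts in GS689 and in 0 of 192, 4 of 190 and 1 of 221 counts in PC3E. The shares were 0.467%, 2.29% and 3.03% in GS689 and 0%, 2.11% and 0.452% in PC3E, with overlapping ranges. The means were 1.93% ± 1.32 in GS689 and 0.853% ± 1.11 in PC3E (SD, n = 3 each). The quasi-binomial model gave an adjusted p of 0.708. Its 95% interval, taken from the pooled PC3E level of 0.829%, ran from -0.492 to 7.25 points.

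**Figure D3:**
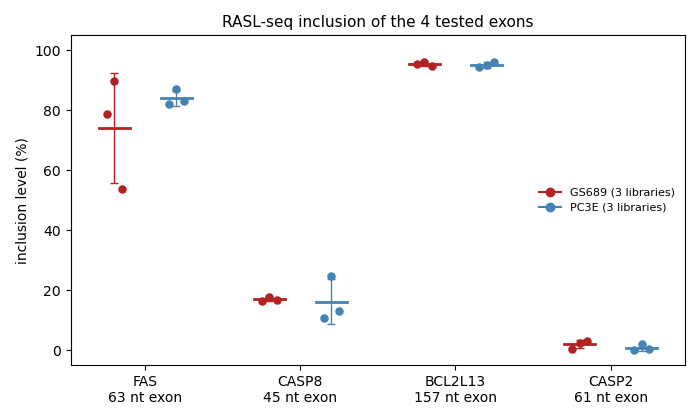
Inclusion level in percent of the 4 tested exons in each RASL-seq library, GS689 in red and PC3E in blue, with mean bars and SD whiskers (n = 3 libraries per line). The lines overlap for each exon, and the widest spread is that of FAS exon 6 in GS689, from 53.8% to 89.7%.

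Counted together, 4 of the 5 genes with a testable total (FAS, CASP8, BCL2L11 and BCL2L13) were called lower in GS689 and 0 were called higher. Over all 1317 features, 29.8% were called in either direction, 13.4% lower and 16.4% higher. The genes were not chosen blind to these data, which limits what the shares beside each other can show. The same 4 genes had ranges that did not overlap, against 22.1% of all features with every GS689 library below every PC3E library. The median log2 change was -0.86 over the 5 genes and -0.0049 over all features. Of the 10 exon events 4 could be tested for inclusion, and 0 were called, against 5.87% of all 1124 events tested. Among the 4, 0 had an unadjusted p under 0.05, a level that 20.2% of all events reached, and 0 had ranges that did not overlap, against 23.6% of all events. Of the 6 events too thin or one-sided to test, 1 had ranges that did not overlap, the 70 nt BCL2L13 exon.

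Beyond these genes, 73 further apoptosis genes were listed, also with earlier results of these data known. Of them, 10 had RASL-seq events and 9 a testable total. Of those 9, 1 was called higher and 1 lower, against 16.4% and 13.4% of all 1317 features. Their median log2 change was -0.27. DAP3, a mitochondrial ribosome protein linked to death receptor signalling, averaged 121 ± 13.2 CPM in GS689 and 243 ± 16.3 CPM in PC3E (SD, n = 3 each), a log2 change of -0.99 (limma-voom adjusted p = 0.00117). LMNA, the lamin gene whose protein caspases cleave, averaged 359 ± 38.3 CPM in GS689 and 237 ± 22.1 CPM in PC3E (SD, n = 3 each), a log2 change of 0.59 (adjusted p = 0.0135). BAX, which opens the mitochondrial membrane, had 408 ± 26.5 CPM in GS689 and 495 ± 70.4 CPM in PC3E and was not called (log2 change -0.27, adjusted p = 0.196). Of 8 tested exon events in these genes 1 was called, against 5.87% of all 1124 events tested. That was the 60 nt exon of MADD, a protein that binds the TNF receptor. Its inclusion was 73.1% ± 14.0 in GS689 and 23.3% ± 1.63 in PC3E (adjusted p = 0.00297 by the quasi-binomial model).

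**Figure D4:**
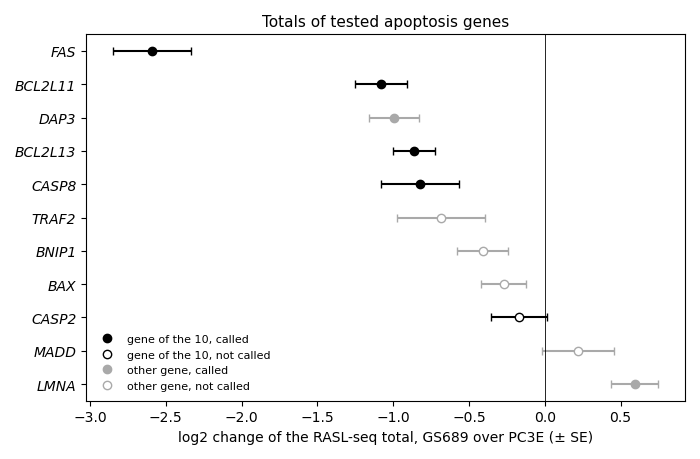
Log2 change of the RASL-seq total, GS689 over PC3E, with its SE, for the testable genes of the death receptor and BCL2 family lists, with CASP2 and LMNA; black marks FAS, CASP8, CASP2, BCL2L11 and BCL2L13, grey the other listed genes, and filled points a limma-voom adjusted p under 0.05. FAS lies farthest to the left at -2.59, LMNA is the one filled point to the right of 0, at 0.59.

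Over all 1317 features, 13.4% were called lower in GS689 and 16.4% higher. By list, 3 of 5 tested death receptor genes (FAS, CASP8 and DAP3) were called lower in GS689, and the remaining TRAF2 and MADD were not called. The CASP8 call was lost in 6 of 15 alternatives. Of 4 tested BCL2 family genes and partners 2 were called lower (BCL2L11 and BCL2L13), and BAX and BNIP1 were not called. Of 5 tested genes of the apoptosome, caspases and their inhibitors and substrates, LMNA was called higher and 0 were called lower. The plot of log2 changes of totals sets the genes of the first 2 lists side by side with CASP2 and LMNA. Of 38 listed splicing factors known to act on FAS, CASP2, BCL2L1 or MCL1 exons, 7 had a testable total and 0 were called. PTBP1, a repressor of FAS exon 6, had 180 ± 39.6 CPM in GS689 and 232 ± 42.3 CPM in PC3E (adjusted p = 0.201). RBM5, which promotes skipping of that exon, had 1475 ± 177 CPM in GS689 and 1317 ± 144 CPM in PC3E (adjusted p = 0.394). An adjusted p above the threshold does not show that these levels were alike.

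The genes most like FAS over the 6 RASL-seq libraries were SLC44A2, LRRC75A-AS1, TRIM16L, SPECC1 and TUFT1. Likeness was the root mean square difference of log2(CPM + 1) after each gene was centred on its mean, and the 5 genes lay between 0.30 and 0.38. SLC44A2, a choline transporter-like protein, had 60.6, 85.9 and 61.6 CPM in GS689 and 347, 502.5 and 356 CPM in PC3E. TRIM16L had 108, 93.2 and 130 CPM in GS689 and 671, 675 and 794 CPM in PC3E. Both genes were picked for their likeness to FAS over these libraries, so their lower values in GS689 follow from the choice. LRRC75A-AS1 is annotated as an antisense gene, and how the probes treat strand is not given in the sources used here.

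**Figure D5:**
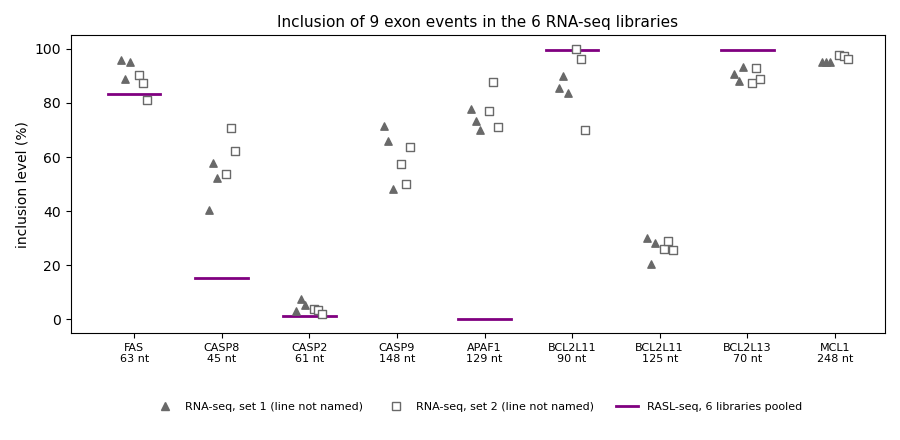
Inclusion level in percent of 9 exon events in each of the 6 RNA-seq libraries (triangles and squares are sets 1 and 2, whose cell line the table does not name), and, as a purple line, the RASL-seq level over its 6 libraries where the event is in both tables. APAF1 and the 45 nt CASP8 exon lie farthest from their RASL-seq level, at 77.4% against 0% and 54.6% against 15.3% over all libraries.

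The assays could be set side by side for the 10 events present in both, with the counts of all libraries of an assay summed. RASL-seq counts inclusion at the upstream junction alone, whereas the RNA-seq inclusion counts do not separate the junctions on either side of an exon. The part of this in the gaps below was not tested. Of 1966 events of the whole series present in both assays, 1640 had at least 60 summed counts in each and were compared. Their levels correlated across events (Pearson r = 0.87, a description, since events share libraries), with a median absolute difference of 4.65 points. The APAF1 event, with 23 RASL-seq counts, was not among them. The 109 nt and 25 nt FAS exons, the 331 nt CASP8 exon, the 157 nt BCL2L13 exon and the CASP2 exon lay within 2.95 points of each other in the assays. FAS exon 6 was at 83.1% in RASL-seq and 91.9% in RNA-seq. The BCL2L11 90 nt exon was at 99.6% in RASL-seq and 86.3% in RNA-seq, and the 70 nt BCL2L13 exon at 99.4% in RASL-seq and 90.3% in RNA-seq. The 45 nt CASP8 exon was at 15.3% in RASL-seq and 54.6% in RNA-seq, a gap of -39.4 points. RASL-seq thus gave the lower level for APAF1, the 45 nt CASP8 exon, FAS exon 6 and the CASP2 exon. It gave the higher for the BCL2L11 and 70 nt BCL2L13 exons.

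In RNA-seq 17 of the 96 events had at least 20 counts and a median inclusion between 5% and 95%. The 96 events covered 51 distinct exons, and 70 had a median inclusion above 95% and 6 below 5%. FAS exon 6 ranged from 81.3% to 95.9% with a median of 89.5%. The 45 nt CASP8 exon ranged from 40.4% to 70.9% with a median of 55.8%, and read against farther downstream exons its median was 85.7% and 91.8%. The neighbouring 65 nt CASP8 exon had a median of 88.5% against the farther partner. BCL2L11 exons ranged widely, with medians of 94.5% for its 137 nt exon, 87.7% for the 90 nt exon, 93.2% for the 104 nt exon and 27.1% for a 125 nt exon. The named BCL2L13 events were 4 of the 70 nt exon, with medians between 89.0% and 92.0%, and 2 of the 144 nt exon at 93.5% and 92.8%. The APAF1 129 nt exon had a median of 75.2%.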

How the data were processed

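RNA of GS689 and PC3E was profiled with 3 RASL-seq libraries (MiSeq) and 3 RNA-seq libraries (HiSeq) each. The submitters' processing notes name kallisto 0.43.0, STAR 2.5.2a and build hg19, without their roles. Per the file headers, each cell of the deposited RASL-seq table holds a pair of counts per library, and the RNA-seq table has both kinds of count, with effective lengths, for 2 unnamed sets of 3. In RASL-seq the first count was taken as inclusion, because it equalled the shared upstream junction in 51 of 51 event pairs, against 0 of 51 with the counts exchanged. The inclusion level is the inclusion count over both counts, length-corrected in RNA-seq. A junction can count in several events, and empty cells were read as 0. Of the per-sample columns 0 were left unused.

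Names came from GENCODE release 29 by exon and intron lengths, without converting coordinates. In RASL-seq 1934 of 2023 events (95.6%) matched exactly 1 gene and in RNA-seq 109244 of 114816. Exon sequences were read from the annotation's transcripts, not by position. The 10 genes and the gene lists were chosen with earlier results of these data known.

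Inclusion was tested per event with a quasi-binomial model whose dispersions were moderated with limma 3.58.1 (R 4.3.3) and held at 1 or above. Events needed a mean of 10 counts per library, 1 in each and 10 of the rarer form. Exons were called at 5 points or more and an adjusted p (Benjamini-Hochberg) under 0.05. Model intervals in points convert the 95% interval of the odds ratio, with the pooled PC3E level held fixed. Gene totals were tested with limma-voom on summed counts, for features with about 10 counts in 3 libraries and 15 in all, and p-values were adjusted over the whole table. Both methods were tested on simulated data. Intervals of shares are exact binomial at 95%, a count of 0 allows up to 3 counts, and both cover counting error only. Named by rule were all 10 genes and RNA-seq events with a median of 20 counts and 5% to 95% inclusion. The rule also covered every called gene of the lists and the 5 genes most like FAS. Genes named beyond this rule, such as BAX, PTBP1 and RBM5, were chosen after their values were seen. So were levels of events outside those limits, such as that of MCL1. Alternatives left out libraries, changed scaling, filters, pseudocounts and the model, used 1 kind of junction, or added the replicate number.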

Additional observations from a re-analysis of the deposited data

Results flagged for a closer look

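RNA-seq events outside the comparison of the lines, some of them of exons that RASL-seq measured between other flanking exons, showed both forms above the limit that a count of 0 allows. For BCL2L11, the 125 nt exon with introns of 3632 and 10228 nt had a median inclusion of 27.1%. For BCL2L13, the 171 nt exon had 96.6%, the 70 nt exon 92.0% with a downstream intron of 30466 nt and 89.0% with an upstream intron of 12819 nt, and the 144 nt exon 93.5% and 92.8% with upstream introns of 6032 and 13100 nt. The 148 nt exon of CASP9 had a median of 60.6%, exon 2 of CFLAR 95.2% and the 248 nt exon of MCL1 95.7%. RASL-seq held 0 of these events, so no difference between the lines was tested.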

How the results depend on the processing

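The FAS total was called lower in GS689 under all 15 alternatives, between -2.75 and -2.11 (limma-voom adjusted p 6.25e-07 to 0.0049), and BCL2L11 under all 14 that gave a value. BCL2L13 was not called from skipping counts alone (log2 -0.81, adjusted p 0.0609). The CASP8 total was not called in 6 of 15 alternatives: from inclusion counts alone (log2 -0.47, adjusted p 0.252), from skipping counts alone (log2 -0.9998, 0.0528) and in the 4 leave-outs given above. DAP3 was not called from inclusion counts alone (log2 -0.62, 0.194), nor LMNA without GS689 replicate 3 and PC3E replicate 2 (log2 0.47, 0.0561), a pair chosen after seeing the data; the FAS, CASP8, BCL2L11 and BCL2L13 totals were called without that pair. Inclusion of the 4 exons tested was called under none of the alternatives that gave a value, 13 for each exon except 10 for CASP2. Differences that changed sign, none of them called, were FAS exon 6 (leave-one-out range -17.7 to 0.165 points, and 1.62 without the pair), the 45 nt CASP8 exon (-1.83 to 5.11 points, and 5.27 without the pair), the 157 nt BCL2L13 exon (-0.228 to 0.705 points) and the CASP2 total (log2 -0.32 to 0.01, and 0.0295 without the pair). Over all features, 393 of 1317 totals were called, and 242 of 905 from skipping counts alone. Leaving out 1 library gave 251 to 441 (251 of 1287 without GS689 replicate 1, 441 of 1291 without PC3E replicate 2). Counts per event gave 488 of 1705. Exon calls were 66 of 1124. Of the same 1124, limma on the log2 ratio called 31 with a pseudocount of 0.5 and 47 with a pseudocount of 5. Leaving out 1 library gave 46 to 86. Among the 5 genes of the report with a testable total 4 were called, 1 of the 4 tested from skipping counts alone and 3 to 4 leaving out 1 library. Of 9 tested totals of other apoptosis genes 2 were called, 1 of 6 from skipping counts alone and 1 of 7 from inclusion counts alone. Leaving out 1 library gave 2 to 4, with 4 without PC3E replicate 2. Causes were not tested, including the fewer features and counts that single junctions leave. Whether replicate numbers pair the libraries was not settled. Correlations of same-numbered deviations were 0.27, 0.17 and -0.01, and those of differently numbered libraries lay between -0.27 and 0.099. With the replicate number as a block, 465 totals and 88 exons were called, and CASP8 had an adjusted p of 0.00713. Depth limits the exon results: FAS exon 6 had 13 to 33 counts per GS689 library, and 6 of the 10 exon events were too thin or too one-sided to test.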

Other observations

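The RNA-seq table gives the libraries as sets 1 and 2 with no cell line, so their values are listed without a comparison of lines. Summed counts of FAS events were 546, 509 and 504 in the libraries of set 1 and 82, 69 and 100 in those of set 2. BCL2L11 had 1204, 765 and 1648 counts in set 1 and 495, 432 and 388 in set 2. CASP8 had 5501, 4247 and 5556 counts in set 1 and 3287, 3486 and 3154 in set 2, and BCL2L13 had 7060, 8647 and 7195 in set 1 and 4960, 4836 and 4242 in set 2. APAF1 had 636, 513 and 845 counts in set 1 and 1256, 1495 and 1011 in set 2. CFLAR had 1644, 2533 and 1803 counts in set 1 and 1803, 1767 and 1488 in set 2. MCL1 had 2594, 2528 and 3106 in set 1 and 3297, 3687 and 2424 in set 2. CASP9 had 622, 1061 and 822 in set 1 and 754, 1148 and 791 in set 2. CASP2 had 3990, 3284 and 5331 in set 1 and 3794, 4940 and 2739 in set 2. Totals of the table were between 93842790 and 120853566 counts per library, in which a read can count in several events.

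Among exons, MCL1 exon 2 had inclusion levels of 95.04%, 95.1% and 94.98% in set 1 and 97.8%, 97.3% and 96.2% in set 2. FAS exon 6 had 95.9%, 88.7% and 95.2% in set 1, and 90.3%, 87.2% and 81.3% in set 2, where 12 to 24 counts stood behind each value. CASP9 exon 6 had 71.4%, 66.1% and 48.3% in set 1 and 57.3%, 50.0% and 63.8% in set 2. The 45 nt CASP8 exon had 40.4%, 57.9% and 52.3% in set 1 and 53.7%, 70.9% and 62.3% in set 2. The CASP2 exon had 3.03%, 7.50% and 5.17% in set 1 and 3.68%, 3.35% and 2.06% in set 2.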
